A study of Rattus norvegicus with 6 samples.

Results

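The Maf and Nrf2 network was followed in Suz12-depleted IEC-6 cells through 8 genes: the large Maf factor Maf, the small Maf factors Maff, Mafg and Mafk, the cap'n'collar factors Nfe2l1 (Nrf1) and Nfe2l2 (Nrf2), the repressor Bach1 and the Nrf2 inhibitor Keap1. Every probe set annotated to exactly 1 of these symbols was taken, which gave 14 probe sets of the 31042 compared on the arrays, for 8 of 14217 named genes. These genes were chosen by measured values of the same comparison, in which Maf had stood among the largest increases, so their own values are a description and carry no test.

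RNA was measured in 3 ShSuz12 samples and 3 ShControl samples from separate experiments. Both lines derive from IEC-6 cells, which come from the rat small intestine, are not tumorigenic and resemble its undifferentiated crypt cells. ShSuz12 cells carried a lentiviral short hairpin RNA against Suz12, a core subunit of the Polycomb complex PRC2, which trimethylates lysine 27 of histone H3. ShControl cells carried a scrambled hairpin. Both were stable, puromycin-selected populations grown in serum-supplemented DMEM. A single Suz12 hairpin in a single population was compared with a single control population, so an effect of the depletion and a difference between these particular populations cannot be told apart. All values below are log2 values from the RMA method, in which 1 unit is a 2-fold difference.

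The labels were checked first. Suz12 had values of 5.82, 5.77 and 5.91 in ShSuz12 cells and of 8.45, 8.55 and 8.77 in ShControl cells, and fell by 2.76 (standard error 0.09, adjusted p = 2.78e-07 from limma over all probe sets). Array medians were 6.26 to 6.27 in ShSuz12 and 6.15 to 6.17 in ShControl samples. Among 20 measured markers of intestinal epithelium, 15 in ShSuz12 and 17 in ShControl cells lay below the median of the array. Cdh1 (E-cadherin) was bright, at 11.82 ± 0.04 in ShSuz12 and 12.58 ± 0.10 in ShControl cells (SD, n = 3 each), whereas the epithelial surface protein Epcam was at 3.53 ± 0.02 in ShSuz12 and 3.51 ± 0.11 in ShControl cells, at percentiles 6.47 and 5.75 of the arrays. Vimentin (Vim), a filament protein of mesenchymal cells, was at percentile 99.9 in both. Among 18 measured markers of fibroblasts and smooth muscle, Vim included, 7 in ShSuz12 and 8 in ShControl cells lay below the array median. Probe sets differ in brightness for the same amount of RNA and no detection call was used here, so a low value such as that of Epcam does not show that the gene was absent.

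Maf proteins are basic leucine zipper factors that bind DNA as dimers at Maf recognition elements. Large Maf proteins carry an activation domain and drive differentiation programmes in lens, lymphocytes and macrophages. Small Maf proteins lack that domain and act as partners: with Nrf2 or Nrf1 they activate genes through antioxidant response elements (ARE), and with Bach1 they repress many of the same genes. Keap1 presents Nrf2 to a Cul3 ubiquitin ligase for degradation until oxidants or electrophiles modify it. In the intestine this pathway is known for detoxification and defence against oxidative injury.

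The promoter of Maf, the member with the largest difference, and that of Mafk, the small Maf with the largest difference of the opposite sign, are shown with their CpG dinucleotides in capitals, since CpG-rich promoters are the class at which PRC2 is best known to act. Both are the 250 bases before the RefSeq gene start in GRCr8, read along the minus strand, at chr19:60621357-60621606 for Maf and chr12:19959193-19959442 for Mafk.
Maf: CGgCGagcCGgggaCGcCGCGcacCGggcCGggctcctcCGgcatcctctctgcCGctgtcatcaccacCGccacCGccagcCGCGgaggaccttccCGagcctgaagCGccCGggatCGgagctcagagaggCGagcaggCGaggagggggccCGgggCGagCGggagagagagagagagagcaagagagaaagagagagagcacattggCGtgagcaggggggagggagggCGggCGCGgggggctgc
Mafk: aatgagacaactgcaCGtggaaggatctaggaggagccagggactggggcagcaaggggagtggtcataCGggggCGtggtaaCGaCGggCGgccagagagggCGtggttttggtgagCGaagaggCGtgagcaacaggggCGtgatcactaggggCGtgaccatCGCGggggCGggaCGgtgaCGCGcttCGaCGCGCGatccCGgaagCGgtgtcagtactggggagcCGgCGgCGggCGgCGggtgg
The Maf window held 27 CpG and the Mafk window 28, against a median of 5 over 33469 such windows in the RefSeq table. All 8 genes had a window there, 10 windows in all, because Nfe2l1 had 3. Every one of the 10 had more CpG than the median, with counts of 32 for Mafg, 25 for Bach1, 17 for Maff, 13 for Nfe2l2 and 7 for Keap1, and 11, 18 and 20 for the Nfe2l1 starts. Keap1 lay closest to the median, at percentile 56.6 of all windows by CpG count, beside 92.8 for Maf and 93.6 for Mafk. A count above the median was thus shared by Maf, which was higher in ShSuz12 cells, and by members that were lower. Whether CpG content had a part in the differences between the lines was not tested. No histone mark was measured on these arrays.

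Maf was far higher in ShSuz12 cells, but its probe sets differed widely in size. Probe set 1385243_at had values of 9.62, 9.58 and 9.68 in ShSuz12 cells and of 4.39, 4.63 and 4.63 in ShControl cells. The groups lay far apart, at percentile 89.3 of the array in ShSuz12 and percentile 27.0 in ShControl cells. With means of 9.63 ± 0.05 in ShSuz12 and 4.55 ± 0.14 in ShControl cells (SD, n = 3 each), the log2 difference was 5.08, or 33.8-fold, and it ranked 11 from the top of the 31042 probe sets.

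Probe set 1387165_at, the only Maf probe set that the platform annotation pairs with a RefSeq transcript, had values of 6.78, 6.82 and 7.20 in ShSuz12 cells and of 4.12, 4.25 and 3.90 in ShControl cells. The groups were again clearly apart. Its means were 6.93 ± 0.23 in ShSuz12 and 4.09 ± 0.18 in ShControl cells (SD, n = 3 each), a log2 difference of 2.84 or 7.18-fold. Probe set 1368388_at had values of 5.68, 5.41 and 5.45 in ShSuz12 cells and of 4.92, 5.01 and 5.26 in ShControl cells. It stayed below the array median on all arrays, at percentile 40.8 in ShSuz12 and 35.7 in ShControl cells. Its difference was 0.45, or 1.36-fold, with no overlap between the groups. The direction was thus shared by all 3 probe sets, while the size ran from 0.45 to 5.08 with a mean over them of 2.79. Any single fold change for Maf depends on the probe set chosen. The ShControl values of all 3 are low and were not shown to stand above background, so these folds are ratios of RMA values, and how much Maf RNA ShControl cells held is not known from them.

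**Figure D1:**
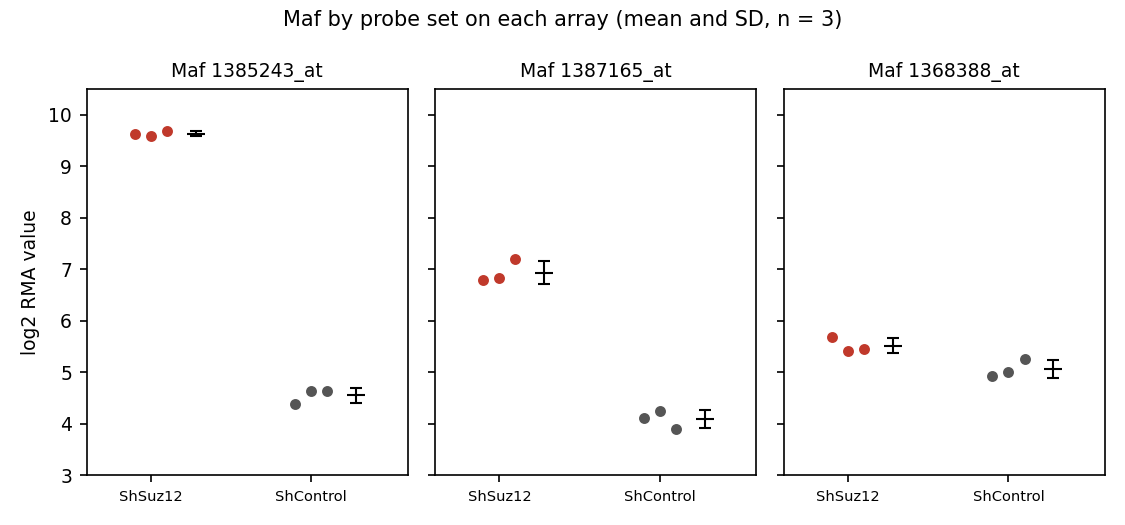
Log2 RMA values of the 3 Maf probe sets on each array (points, ShSuz12 left and ShControl right) with the mean and SD of 3 arrays. At 1385243_at the ShSuz12 arrays sit between 9.58 and 9.68 and the ShControl arrays between 4.39 and 4.63, while at 1368388_at the groups are 0.45 apart.

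The genes most like probe set 1385243_at over the 6 arrays were found among all probe sets with 1 symbol, after each was centred on its ShControl mean, by the root mean square difference from it. They were A2m, a secreted protease inhibitor (0.0593), Gjb2, a gap junction connexin (0.0761), Bex4 (0.0816), Spp1, which encodes osteopontin (0.120), and Lbp, the lipopolysaccharide binding protein (0.137). A2m had values of 9.36, 9.36 and 9.35 in ShSuz12 cells and of 4.11, 4.46 and 4.30 in ShControl cells. The log2 differences of these 5 genes ran from 4.98 to 5.26, which the likeness to Maf fixes.

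The small Maf genes had lower values in ShSuz12 cells by far smaller amounts. Mafk had values of 8.13, 8.14 and 8.11 in ShSuz12 cells and of 8.69, 8.66 and 8.55 in ShControl cells. The groups did not overlap, and the log2 difference was -0.51 (0.702 of the ShControl level). Maff, which is inducible by stress and cytokines, had 5.61, 5.47 and 5.56 in ShSuz12 cells and 5.77, 5.68 and 5.78 in ShControl cells, a difference of -0.19. It was below the array median on all 6 arrays. Mafg probe set 1368874_a_at had 6.69, 6.72 and 6.81 in ShSuz12 cells and 6.97, 6.87 and 7.09 in ShControl cells, a difference of -0.23 without overlap. The brighter Mafg probe set 1372024_at had 7.79, 7.75 and 7.81 in ShSuz12 cells and 7.81, 7.97 and 7.71 in ShControl cells, which overlapped, with a difference of -0.05. The groups were thus apart at 1 of the 2 Mafg probe sets.

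Nfe2l2, which encodes Nrf2, was among the brightest probe sets of all arrays, at percentile 98.2 in ShSuz12 and 98.6 in ShControl cells. Its values were 11.71, 11.68 and 11.68 in ShSuz12 cells and 11.90, 11.99 and 11.94 in ShControl cells. All ShSuz12 values lay below all ShControl values, but by only 0.26 on the log2 scale (0.837 of the ShControl level). The arrays measured its RNA and not its protein, which is the level at which Keap1 acts.

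Nfe2l1, whose product Nrf1 sits in the endoplasmic reticulum membrane and activates proteasome genes after it is released and processed, had 3 probe sets that differed among themselves. Probe set 1390068_at had 7.13, 7.23 and 7.04 in ShSuz12 cells and 7.71, 7.58 and 7.71 in ShControl cells, a difference of -0.53. Probe set 1375253_at had 7.11, 7.04 and 7.11 in ShSuz12 cells and 7.41, 7.10 and 7.38 in ShControl cells, a difference of -0.21 with overlap at a single ShControl array. The brightest, 1373278_at, had 8.22, 8.01 and 8.18 in ShSuz12 cells and 8.16, 8.13 and 8.21 in ShControl cells, a difference of -0.03 with full overlap. No common size could be given for this gene.

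Keap1, the adaptor that delivers Nrf2 for degradation, was lower at both probe sets. Probe set 1370066_at had 8.31, 8.29 and 8.19 in ShSuz12 cells and 8.66, 8.74 and 8.59 in ShControl cells, a difference of -0.39. Probe set 1387810_at had 6.71, 6.77 and 6.88 in ShSuz12 cells and 7.46, 7.05 and 7.33 in ShControl cells, a difference of -0.49. The groups did not overlap at either. Bach1, the haem-sensitive repressor that competes with Nrf2 for small Maf partners, was dim, with 4.61, 4.52 and 4.49 in ShSuz12 cells and 4.77, 4.49 and 4.88 in ShControl cells. These overlapped, with a difference of -0.17.

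**Figure D2:**
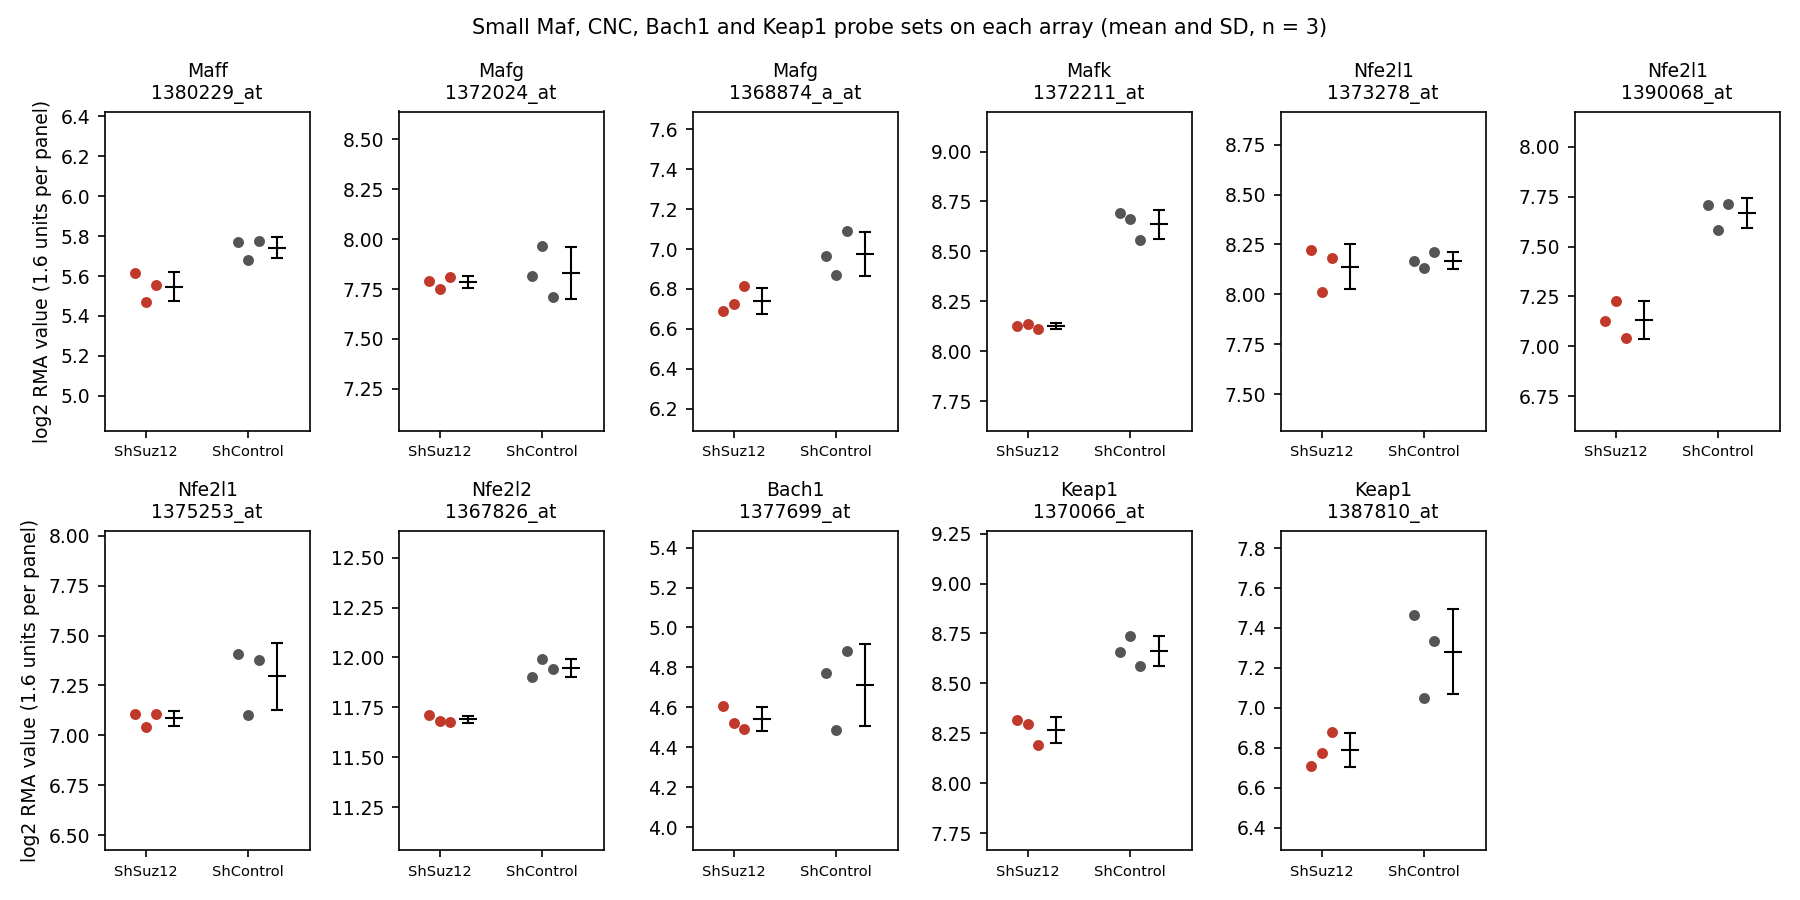
Log2 RMA values of the 11 probe sets outside Maf on each array (points, ShSuz12 left and ShControl right) with the mean and SD of 3 arrays, all panels spanning an equal range. The groups are separate for Mafk, Nfe2l2 and both Keap1 probe sets and overlap for Bach1, Mafg 1372024_at and Nfe2l1 1373278_at and 1375253_at.

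All 11 probe sets outside Maf had a negative difference, between -0.53 and -0.03. A negative difference was common, held by at least 18767 of all 31042 probe sets. The median difference of the 14 probe sets was -0.20, beside -0.05 over all probe sets. In the fit over all probe sets, 2 of the 14 were called higher and 0 lower at an adjusted p under 0.05 with at least a 2-fold change, and both of the higher ones were Maf, where 3.1% of all probe sets were called higher and 0.396% lower. Without the 2-fold limit, 3 were higher and 7 lower, where 14.8% of all probe sets were higher and 19.5% lower. The groups did not overlap at 3 probe sets that were higher and 7 that were lower, where 19.4% of all probe sets were higher without overlap and 28.1% lower. Since the genes were chosen with this comparison known, nothing is read from these counts.

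**Figure D3:**
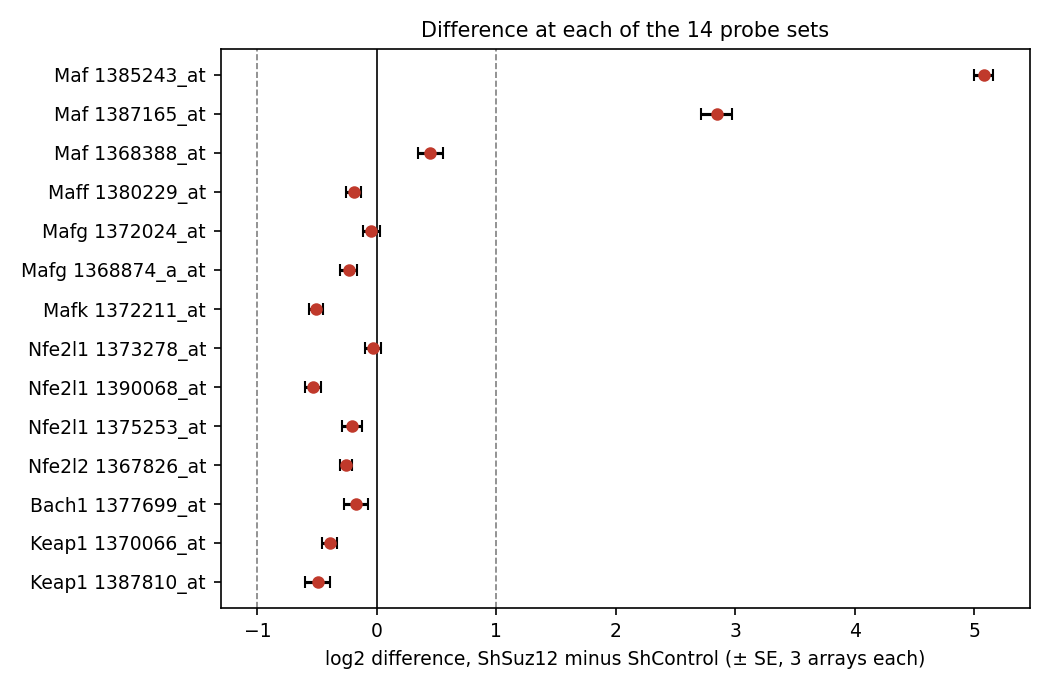
Log2 difference, ShSuz12 minus ShControl, at each of the 14 probe sets with its standard error (3 arrays each). The 3 Maf probe sets stand at 5.08, 2.84 and 0.45, and the other 11 between -0.53 and -0.03.

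The partners and targets of these factors were examined through lists of genes, each gene by its brightest probe set and by limma over all 31042 probe sets. Of 14217 genes measured, 17.1% were higher and 23.3% lower in ShSuz12 cells at an adjusted p under 0.05, while 3.82% were higher and 0.422% lower by at least 2-fold. The median difference of all genes was -0.05. When the median of each array was subtracted first, every difference became 0.10 lower, and of the probe sets passing the adjusted p 23.3% were then higher, against 43.2% without the subtraction. Small decreases in particular are therefore best read against that shift.

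Of other factors of the same family, Mafa and Nfe2 were measured. Mafa, a large Maf of pancreatic beta cells, had 5.19, 5.19 and 5.14 in ShSuz12 cells and 4.76, 4.88 and 4.87 in ShControl cells, and rose by 0.34 (adjusted p = 0.00223 from limma). It was below the array median in both. Nfe2, the erythroid relative of Nrf2, was near the bottom of the arrays at 3.40 ± 0.06 in ShSuz12 and 3.43 ± 0.06 in ShControl cells (SD, n = 3 each), a difference of -0.03 (adjusted p = 0.731 from limma).

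The AP-1 and related leucine zipper factors, some of which pair with Maf proteins or bind similar elements, were all 16 measured, and 7 rose and 2 fell (adjusted p under 0.05 from limma), with a median difference of 0.12. At the 2-fold limit 0 were called, by limma's adjusted or unadjusted p and by the methods' t-test alike. Atf3, a stress-induced factor, had 5.48, 5.35 and 5.65 in ShSuz12 cells and 4.63, 4.76 and 4.38 in ShControl cells and rose by 0.90 (adjusted p = 0.0005). Fosl1 (Fra-1) had 5.93, 5.79 and 5.94 in ShSuz12 cells and 5.10, 5.29 and 5.23 in ShControl cells and rose by 0.68 (adjusted p = 2e-04). Fos rose by 0.79 at its brighter probe set (adjusted p = 0.00132) and had a difference of 0.00 at the other (adjusted p = 0.969). Atf6, a sensor of the endoplasmic reticulum, rose by 0.70 at its brighter probe set (adjusted p = 3.09e-05) and had a difference of 0.15 at the other (adjusted p = 0.532). The 2 that fell by their brightest probe set were Atf5, by 0.46 (adjusted p = 0.0205), and Atf4, by 0.33 (adjusted p = 0.00149). Both are factors of the amino acid and integrated stress response. Dimmer probe sets of Crem fell by 0.25 and 0.30 (adjusted p = 0.00828 and 0.00871). A dimmer Creb1 probe set fell by 0.34 (adjusted p = 0.0136). The other probe sets of Crem and Creb1, the brightest included, did not pass.

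Of 20 regulators of the Nrf2 and Nrf1 proteins, 18 were measured, and 2 rose and 5 fell (adjusted p under 0.05 from limma), with a median difference of -0.08. At the 2-fold limit 0 were called by their brightest probe set, again by limma's adjusted or unadjusted p and by the methods' t-test, but dimmer probe sets of Fbxw7 and Cul3 passed it in opposite directions. Fbxw7, a ubiquitin ligase subunit that targets Nrf1 among other factors, had 8.43, 8.66 and 8.77 in ShSuz12 cells and 7.59, 7.78 and 7.62 in ShControl cells. It rose by 0.95 (adjusted p = 1.52e-04), and by 1.11 at a dimmer probe set (adjusted p = 7.55e-04). Cdkn1a (p21), which can bind Nrf2 and compete with Keap1, rose by 0.51 (adjusted p = 0.00307) and had a difference of 0.37 at a dimmer probe set (adjusted p = 0.0768). Cul3, the scaffold of the ligase to which Keap1 delivers Nrf2, had a difference of -0.07 at its brightest probe set (adjusted p = 0.348) and of -0.05 at its dimmest (adjusted p = 0.656). At the remaining probe set it fell by 1.21 (adjusted p = 1.47e-06), with means of 6.94 in ShSuz12 and 8.15 in ShControl cells. Ngly1, which removes sugars from Nrf1 during its processing, had 9.16, 9.10 and 9.07 in ShSuz12 cells and 9.65, 9.74 and 9.86 in ShControl cells and fell by 0.64 (adjusted p = 2.03e-04). Smaller decreases were those of Palb2 and Pgam5, both of which can bind Keap1, and of the kinase Prkcd, by 0.35, 0.29 and 0.25 (adjusted p = 0.0105, 0.00568 and 0.027). A dimmer Pgam5 probe set had a difference of -0.04 (adjusted p = 0.796).

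The target genes of Nrf2 moved both ways. Of 50 listed genes 44 were measured, and 7 rose, 21 fell and 16 were not called at an adjusted p under 0.05 from limma, with a median difference of -0.16. By at least 2-fold, 3 rose and 2 fell. The glutathione transferase genes of this list have near-identical relatives whose probes may share signal.

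Both subunits of glutamate-cysteine ligase, the rate-limiting enzyme of glutathione synthesis, fell. Gclm, the modifier subunit, had 8.30, 8.38 and 8.39 in ShSuz12 cells and 9.47, 9.38 and 9.54 in ShControl cells and fell by 1.11 (standard error 0.06, adjusted p = 5.65e-06). Gclc, the catalytic subunit, had 9.69, 9.71 and 9.73 in ShSuz12 cells and 10.36, 10.38 and 10.32 in ShControl cells and fell by 0.64 (adjusted p = 3.84e-05). Both were lower on every ShSuz12 array. Slc7a11, which imports cystine for the same pathway, had 7.41, 7.23 and 7.35 in ShSuz12 cells and 7.51, 7.56 and 7.47 in ShControl cells, a difference of -0.18 that did not pass (adjusted p = 0.0568).

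The largest decrease of the list was that of Aldh3a1, an aldehyde dehydrogenase, with 8.08, 8.10 and 8.04 in ShSuz12 cells and 9.87, 9.75 and 9.81 in ShControl cells. It fell by 1.74, to 0.300 of the ShControl level (standard error 0.05, adjusted p = 2.45e-07). Nqo1, the quinone reductase often used to read out Nrf2 activity, had 12.35, 12.37 and 12.30 in ShSuz12 cells and 12.89, 12.85 and 12.94 in ShControl cells and fell by 0.56 (adjusted p = 1.23e-04). It was among the brightest genes of both lines. Malic enzyme Me1, which makes NADPH, fell by 0.81 (adjusted p = 4.76e-05), and Osgin1, an oxidative stress-induced growth inhibitor, fell by 0.72 (adjusted p = 6.41e-05). Srxn1 (sulfiredoxin), which repairs oxidized peroxiredoxins, fell by 0.58 at the brightest of 3 probe sets, by 0.63 at another of them and not detectably at the remaining 1, where the difference was -0.09 (adjusted p = 9.88e-05, 0.0318 and 0.481).

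Other genes of the same list rose. Ephx1, the microsomal epoxide hydrolase, had 9.38, 9.28 and 9.17 in ShSuz12 cells and 7.69, 7.87 and 7.83 in ShControl cells and rose by 1.48 (standard error 0.08, adjusted p = 3.56e-06). Abcc1, an exporter of glutathione conjugates, had 9.08, 8.99 and 8.84 in ShSuz12 cells and 7.85, 7.94 and 7.94 in ShControl cells and rose by 1.06 (adjusted p = 1.77e-05). Mgst1, a membrane-bound glutathione transferase, rose by 1.01 (adjusted p = 7.39e-06), and Gsta4, a transferase for products of lipid peroxidation, by 0.69 (adjusted p = 4.73e-05). Abcc1 and Mgst1 lay close to the 2-fold limit, and with the array median subtracted Ephx1 was the 1 gene of the list still 2-fold higher. Differences that did not pass were those of Txnrd1 (thioredoxin reductase), -0.06 (adjusted p = 0.468), and of Hmox1 (haem oxygenase, a classical Bach1 target), 0.07 (adjusted p = 0.448). Hmox1 had 8.59, 8.46 and 8.41 in ShSuz12 cells and 8.35, 8.41 and 8.49 in ShControl cells, which overlapped.

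**Figure D4:**
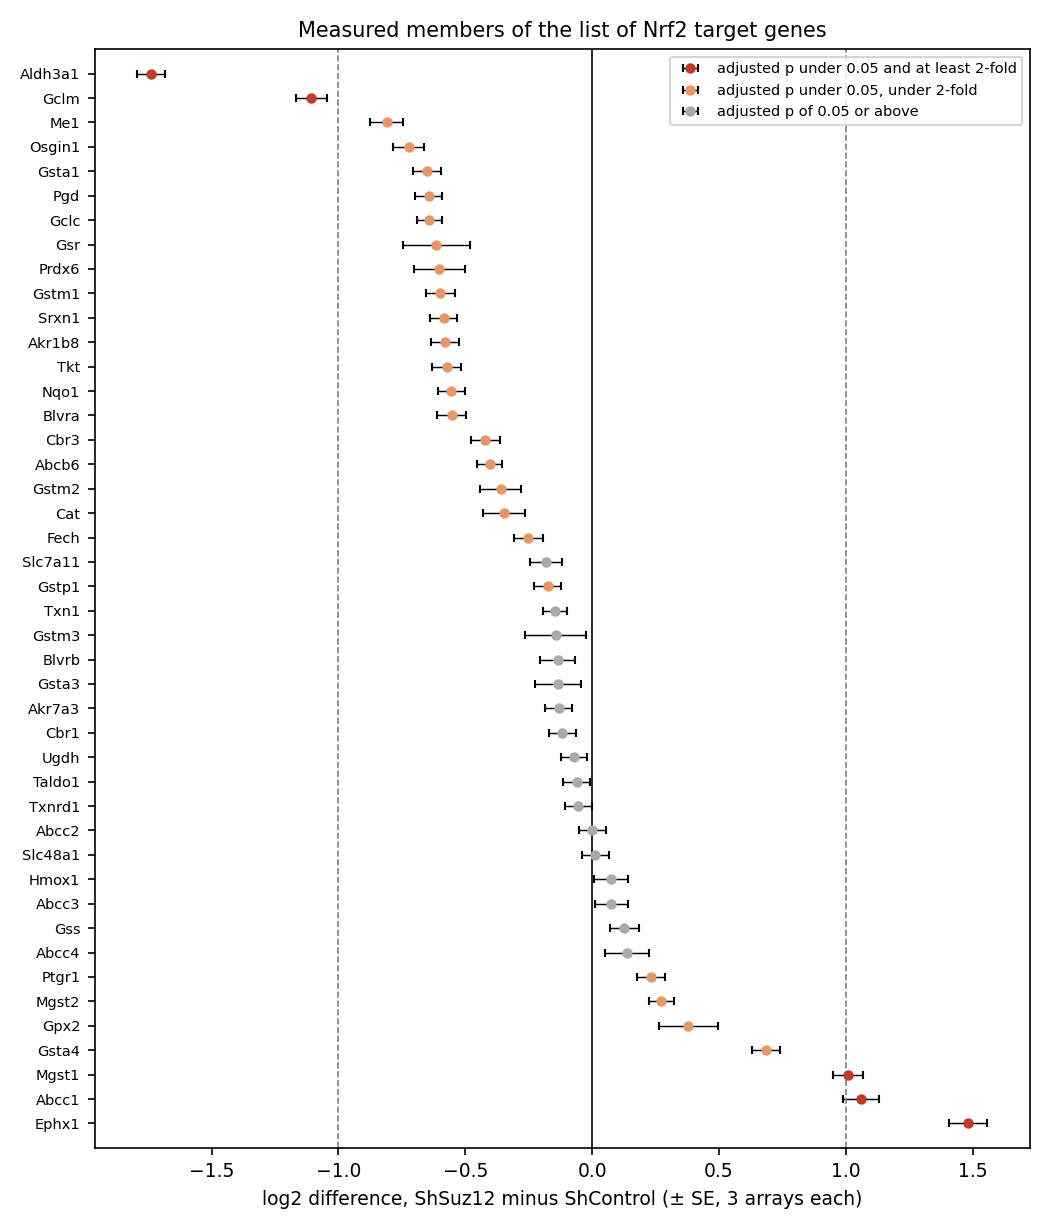
Log2 difference, ShSuz12 minus ShControl, of the 44 measured Nrf2 target genes with standard errors (3 arrays each). Colours mark an adjusted p under 0.05 from limma with at least 2-fold, the same p under 2-fold, and an adjusted p of 0.05 or above. Both directions share a colour. The genes run from Aldh3a1 at -1.74 to Ephx1 at 1.48, with 21 lower, 7 higher and 16 not called.

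**Figure D5:**
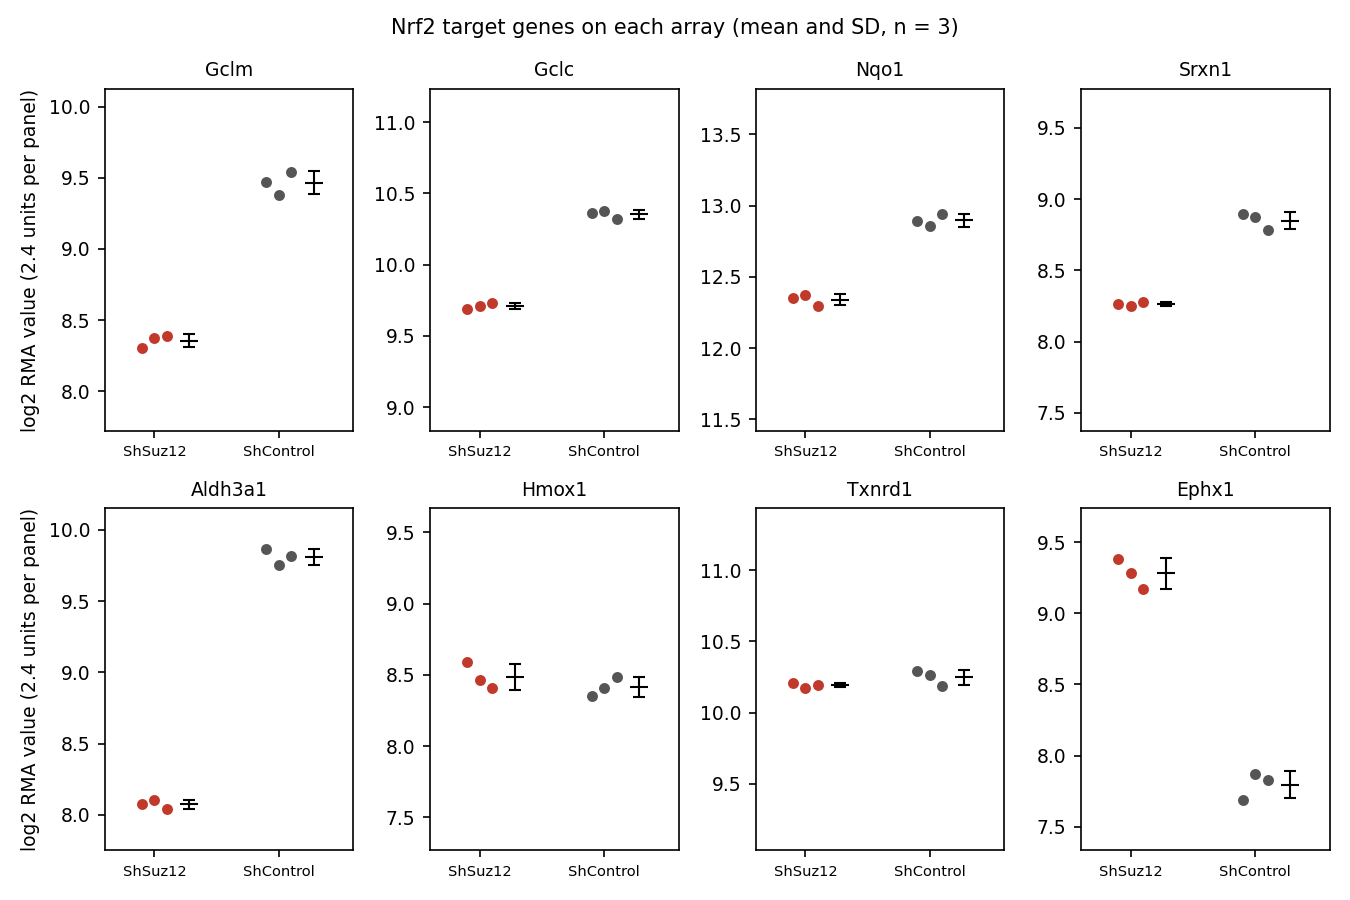
Log2 RMA values of Nrf2 target genes on each array (points, ShSuz12 left and ShControl right) with the mean and SD of 3 arrays, all panels spanning an equal range. The groups are apart for Aldh3a1, Gclm, Nqo1 and Ephx1, in both directions, and overlap for Hmox1.

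The ARE core, written as TGACNNNGC and searched on both strands, was found in 10.1% of all 33469 windows of 250 bases. Of the 44 measured Nrf2 target genes 36 had a window, and 9 of them held the core. It is shown in capitals with up to 10 bases on either side for 4 of these genes, 1 that rose, 2 that fell and 1 that did not pass, from GRCr8 at chr13:95263156-95263184 (plus strand) for Ephx1, chr2:213031953-213031981 (minus) for Gclm, chr8:96540393-96540421 (minus) for Me1 and chr7:22755964-22755992 (plus) for Txnrd1.
Ephx1: atagccccaaTGACTCAGCtgatctgttg
Gclm: tggaagacaaTGACTAAGCagaaaccgca
Me1: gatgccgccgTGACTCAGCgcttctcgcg
Txnrd1: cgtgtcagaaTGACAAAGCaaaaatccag
The same element thus stood near the start of genes with differences of 1.48, -1.11, -0.81 and -0.06. Of the other genes with a core, Gpx2 rose, Blvra and Gstp1 fell, and Gsta3 and Ugdh did not pass (adjusted p under 0.05 from limma). These windows are short, and a core farther from the start was not searched for.

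Among the 10 windows of the Maf and Nrf2 network itself, the ARE core was found in 1, that of Mafk, at chr12:19959215-19959243 (plus strand), and the first 7 bases of a Maf recognition element, TGCTGAC, in 1, that of Nfe2l1, at chr10:82303502-82303528 (minus strand). They are shown with the match in capitals because they were the matches to the network's own elements in its own promoters.
Mafk: tccccagtacTGACACCGCttccgggatc
Nfe2l1: cagccccagcTGCTGACctgggggagg
TGCTGAC was found in 3.53% of all windows, and the AP-1 site TGANTCA, which was in 0 of the 10, in 6.34%. Both were searched on both strands, and the ARE core is also held by the form of the Maf recognition element built on an AP-1 site, but not by the form built on a CRE, whose centre is 1 base longer. A match is a run of letters and says nothing of binding in these cells.

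Proteasome genes, which Nrf1 is known to activate, shifted one way by small amounts. Of 34 listed genes 33 were measured, and 21 fell and 0 rose (adjusted p under 0.05 from limma). The number that rose was 0 also at an unadjusted p under 0.05 and by the methods' t-test. All 33 had a negative difference, from -0.47 to -0.07 with a median of -0.20, and none was 2-fold lower. Of all 31042 probe sets, at least 18767 had a negative difference. Psma3, a subunit of the core particle, had 9.31, 9.24 and 9.19 in ShSuz12 cells and 9.69, 9.72 and 9.72 in ShControl cells and fell by 0.47 (adjusted p = 3.32e-04). Of the regulatory particle, Psmc6 fell by 0.40 (adjusted p = 0.00307), Psmd12 by 0.33 (adjusted p = 0.00432) and Psmc1 by 0.31 (adjusted p = 0.00529).

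Genes known as targets of Maf in other tissues were mostly dim here. Of 25 listed genes 21 were measured, and 18 of these lay below the array median in both lines. Of the 21, 1 passed the 2-fold limit and was higher, where 3.82% of all genes were called 2-fold higher and 0.422% lower. Ccnd2, a G1 cyclin that MAF activates in human myeloma cells, had 11.73, 11.97 and 12.03 in ShSuz12 cells and 10.45, 10.48 and 10.55 in ShControl cells and rose by 1.42, or 2.68-fold (standard error 0.08, adjusted p = 7.67e-06). Cryab, a small heat shock protein of the lens and other tissues, fell by 0.57 (adjusted p = 1.15e-04), and the lens crystallin Crybb3, which was dim, by 0.30 (adjusted p = 0.0249). The median difference of the list was -0.09. Whether Maf had a part in the difference of Ccnd2 was not tested.

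Maf is also expressed in macrophages and in connective tissue cells, and markers of these were measured beside it. Of 17 measured leukocyte markers 0 were 2-fold different by their brightest probe sets (limma's adjusted or unadjusted p, the methods' t-test). Without that limit 4 fell and 13 were not called (adjusted p under 0.05 from limma), where 23.3% of all genes fell. Those that fell were Cd68, Itgam, Cd14 and Cd4, by 0.32, 0.25, 0.23 and 0.22 (adjusted p = 0.0326, 0.0371, 0.0119 and 0.0371). With any 1 array left out, 1 or 2 leukocyte markers were lower. The mean level of the 17 was 4.69 to 4.77 on ShSuz12 arrays and 4.79 to 4.81 on ShControl arrays. In both lines 16 of the 17 lay below the array median. The exception was Cd14, at 9.93 ± 0.05 in ShSuz12 and 10.16 ± 0.03 in ShControl cells (SD, n = 3 each). The pan-leukocyte marker Ptprc (CD45) was at 3.71 ± 0.07 in ShSuz12 and 3.89 ± 0.11 in ShControl cells, and the macrophage receptor Csf1r at 4.04 ± 0.16 in ShSuz12 and 4.06 ± 0.06 in ShControl cells (SD, n = 3 each).

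Markers of fibroblasts and smooth muscle moved both ways. Of 18 measured, 8 rose, 2 fell and 8 were not called (adjusted p under 0.05 from limma). At least 2-fold higher were 6 of those that rose. Of all genes, 17.1% rose and 23.3% fell at that adjusted p, and 3.82% were at least 2-fold higher. The mean level of the 18 was 8.00 to 8.02 on ShSuz12 arrays and 7.33 to 7.37 on ShControl arrays. Col3a1 rose by 2.33, Col1a2 by 2.34, Lum by 2.46 and Col6a1 by 1.96 (adjusted p = 2.08e-07, 6.32e-08, 1.51e-05 and 1.71e-06), all genes of the extracellular matrix. The contractile genes Acta2 and Tagln fell by 0.66 and 0.35 (adjusted p = 4.22e-05 and 0.00142). Other muscle genes of the list, Myh11 and Des, rose by 0.65 and 0.36 (adjusted p = 0.00153 and 0.00656). A dimmer Myh11 probe set had a difference of -0.11 (adjusted p = 0.294). Cnn1 had a difference of -0.27 that did not pass (adjusted p = 0.0685).

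Of 20 epithelial markers measured, 3 rose, 2 fell and 15 were not called (adjusted p under 0.05 from limma), with a median difference of 0.00. At that adjusted p 17.1% of all genes rose and 23.3% fell, shares to set beside each count of this paragraph. The stem cell receptor Lgr5 rose by 3.59, the intestinal homeobox factor Cdx2 by 1.56 and the keratin Krt19 by 1.19 (adjusted p = 5.43e-08, 4.75e-05 and 1.21e-05), while Cdh1 and the keratin Krt8 fell by 0.76 and 0.41 (adjusted p = 6.38e-05 and 9.64e-04). Of 11 endothelial markers 2 rose and 9 were not called, the 2 being the vascular growth factor receptors Kdr, by 0.78, and Flt1, by 0.65 (adjusted p = 1.62e-04 and 1.47e-04). Other probe sets had differences of -0.07 for Kdr and of 0.12 and 0.46 for Flt1. Of 11 neural markers 3 rose and 8 were not called, with Tubb3 up by 0.42, Mbp by 0.22 and Syt1 by 0.21 (adjusted p = 9.88e-04, 0.0164 and 0.0153). Dimmer probe sets had differences of -0.07 for Tubb3 and of -0.05 and 0.01 for Mbp, none of which passed (adjusted p = 0.693, 0.673 and 0.887). No endothelial or neural marker was 2-fold different by its brightest probe set (limma's adjusted or unadjusted p, the methods' t-test). However, a dimmer probe set of the neuronal gene Map2 rose by 1.57 (adjusted p = 1.46e-06), with means of 4.71 in ShSuz12 and 3.14 in ShControl cells. By their brightest probe sets, all 11 endothelial and 10 of the 11 neural markers lay below the array median in both lines. The part of all these changes in the difference of Maf was not tested. In bulk RNA, fewer expressing cells and less RNA per cell cannot be told apart.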

How the data were processed

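RNA of 3 ShSuz12 and 3 ShControl IEC-6 cell samples was hybridized to Affymetrix rat expression arrays. The deposited log2 values are the authors' RMA output from FlexArray, which corrects background, normalizes between arrays and summarizes each probe set. The sources used here give no RMA version. RMA compresses differences of dim probe sets, and present calls were not used here.

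After 57 control probe sets were left out, 31042 were compared in limma 3.58.1 (R 4.3.3; lmFit, eBayes, two-sided) with Benjamini-Hochberg adjustment over all of them. A call needed an adjusted p under 0.05, with or without a 2-fold limit. The code was tested on simulated data. Precision is limited by the number of arrays, and p-values measure the spread between experiments of 1 line per group. Per-sample columns of other samples numbered 0.

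The platform annotation gave 1 symbol for 20826 probe sets, several for 436 and no listed entry for 9780, with 0 symbols updated against the GRCr8 gene table. In lists, each of the 14217 genes was represented by its brightest probe set. The members and the lists were chosen with earlier results of these data known. Named were Suz12, all members, up to 4 genes a direction of each pathway list by size (2-fold ones first, then those at an adjusted p under 0.05), the 7 classical Nrf2 targets Nqo1, Hmox1, Gclc, Gclm, Slc7a11, Txnrd1 and Srxn1, up to 4 called genes of each marker list, and the 5 nearest to Maf. Cul3, Crem, Creb1, Map2, Epcam, Vim, Ptprc and Csf1r, the genes with an ARE core and the marker genes under 2-fold were named after their values were seen. Promoter sequences are RefSeq's for GRCr8. Python 3.11.15, pandas 2.3.3 and matplotlib 3.10.9 were used for counts and figures.

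The alternatives tried were the methods' t-test, adjusted or not, an intensity trend with robust eBayes, median subtraction, a second quantile normalization, a filter that kept probe sets reaching the array's 40th percentile in 2 or more arrays of either group, the replicate number as a block, averaging over all probe sets of a gene, and dropping each array in turn.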

Additional observations from a re-analysis of the deposited data

How the results depend on the processing

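Of 189 alternative values of the differences at the 14 probe sets, 187 kept their sign. The exceptions were Mafg 1372024_at, up to 0.02, and Nfe2l1 1373278_at, up to 0.03, each with 1 array left out. Maf was the 1 member called at 2-fold under every alternative run. Of 664 alternative counts of calls, 614 stayed within 1.5 times the reported one. The 614 include counts that were 0 in every setting, such as the 2-fold counts of AP-1 factors. With each array's median subtracted, 194 probe sets were 2-fold lower and 3576 were higher and 11752 lower at the adjusted p, against 4607 and 6054 as reported. The lower counts became 6 for AP-1 factors, 9 for regulators and 33 for proteasome genes, 4 for epithelial, 4 for fibroblast and smooth muscle, 7 for leukocyte, 2 for endothelial and 2 for neural markers, and 1 Nrf2 target was 2-fold higher and 1 neural marker higher. The methods' t-test with adjustment called 4 of the 14 probe sets lower, with 1 AP-1 factor and 3 regulators lower, and without adjustment 8 regulators. It gave 1 leukocyte marker higher in both forms, and 1 lower with adjustment. The 40th percentile filter gave 4 AP-1 factors lower, 1 leukocyte marker higher and 1 lower, and 1 endothelial and 1 neural marker higher. An intensity trend with robust eBayes gave 1 endothelial marker lower. Averaging all probe sets of a gene gave 4 AP-1 factors lower, 1 regulator, Fbxw7, 2-fold higher, 1 leukocyte marker higher and 1 endothelial marker lower.

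The replicate numbers were not taken to pair the samples. Deviations of same-numbered samples correlated at 0.02, -0.04 and -0.06, and those of differently numbered samples at -0.04 to 0.09. With so few arrays these values cannot settle whether the experiments were paired. With the replicate block, 4287 probe sets were higher and 5324 lower, 4 AP-1 factors, 3 regulators and 1 endothelial marker were lower, and the other counts given here stayed within 1.5 times. With 1 array left out, AP-1 factors lower numbered 1 to 4 (4 without ShControl replicate 2, 1 without ShSuz12 replicate 1 or 2). Regulators lower numbered 3 to 4 (3 without ShControl replicate 1 or any 1 ShSuz12 array). Regulators 2-fold higher numbered 0 to 1 (1 without ShControl replicate 2 or ShSuz12 replicate 1). Leukocyte markers lower numbered 1 to 2 (1 without ShControl replicate 1 or ShSuz12 replicate 3, 2 without any other array), endothelial markers lower 0 to 1 (1 without ShControl replicate 1 or ShSuz12 replicate 3) and neural markers higher 1 to 3 (1 without ShSuz12 replicate 3). The cause of these changes was not tested. Bach1, Maff and Maf 1368388_at lay below the array median on all arrays, and the other Maf probe sets on the ShControl arrays. How far they stand above background was not measured here.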
